A study of Mus musculus with 5 samples.

Results

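The transcripts of mouse macrophages given LPS together with compound 13 were compared with those of macrophages given LPS alone. RAW264.7, a mouse macrophage line transformed by Abelson leukemia virus, was used for every library, so all results are of 1 cell line. The 3 libraries of the comparison, of 5 in the series, are 1 library of cells co-treated with LPS and the compound and 2 libraries of cells given LPS only, and 2 libraries of cells given PBS served as the untreated control. Compound 13 is 5-chloro-6-hydroxymellein, a chlorinated fungal metabolite, and this identity comes from the study's methods because the sample label says only that anti-inflammatory compounds were added. In the study's cell model LPS was given at 0.1 μg/ml and the compound at 10 μM for 24 h, and neither dose is stated anew for the cells that were sequenced. None of the sources used here says that libraries of 1 group came from separate cultures, so the spread between them may be technical.

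LPS forms the outer leaflet of the envelope of Gram-negative bacteria, and macrophages sense it through TLR4. A first arm of TLR4 signalling runs through MyD88 and NF-kB to cytokine and chemokine genes. The other runs through TRIF and IRF3 to interferon beta, which the cell secretes and senses itself, and its receptor then switches on interferon-induced genes through a complex that includes STAT2 and IRF9. That complex binds the interferon-stimulated response element (ISRE), and the gamma-activated sequence (GAS) is another element of interferon-responsive promoters. An agent that acts on LPS-treated macrophages can therefore change these groups of genes separately, which is why they are described group by group here.

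The deposited table holds 1489 genes, 1323 of them protein-coding, as log2 FPKM, that is fragments per kilobase of exon and scaled to the depth of the library. How these genes were chosen is not given in the sources used here. Since most respond to LPS, the table shows how the compound moved LPS-responsive genes and not the transcriptome as a whole. Depths recovered from the low values were 16169000 to 17141000 reads per library, and the listed genes took 16.8% of the reads with the compound, 17.0% and 17.15% with LPS alone and 8.0% and 8.21% in the control. Of 22 macrophage markers the table lists 6, and their summed FPKM was 1692 with the compound against 1678 and 1664 with LPS. A gene entered the test if it reached 1 FPKM in 2 libraries or in the library with the compound, which left 1053 genes. These were fitted with limma on log2(FPKM + 1), a scale that understates the change of low genes, with all 5 libraries in 3 groups. The lone library with the compound is assumed in this fit to vary like the others, and with 1 library against 2 an exact permutation test of a single gene cannot go below p = 0.333. A second, purely descriptive reading was made from the 3 libraries themselves: a gene is said to stand clear of the LPS libraries where its value with the compound lay outside both of them by more than they differed from each other.

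With the compound, LPS-responsive genes differed from LPS alone by small amounts, and mostly downward. The median size of the log2 change between compound and LPS was 0.13 over the 1053 tested genes, against a median difference of 0.07 between the LPS libraries, and the median change was −0.08. Limma called 4 genes higher (0.38% of those tested) and 76 lower (7.22%) at an adjusted p under 0.05, and at an unadjusted p under 0.05 it gave 36 and 228. By the descriptive reading 123 genes stood clear above the LPS libraries (11.7%) and 496 stood clear below (47.1%). All 80 genes that limma called stood clear of both LPS libraries. Of the genes tested, 42 reached the filter only because of the LPS libraries and 15 only because of the compound library, and these hold 23 of the lower calls and 1 of the higher. A gene that enters through the group where it is high had to differ, so such genes are described below with no p. The other 996 genes hold 3 higher and 53 lower calls, 19 of the latter interferon-induced. Rescaling the listed genes by the median of ratios moved the median change from −0.08 to 0.05, and quantile normalization moved it to 0.03. The clear genes then split into 366 higher and 225 lower, or 319 higher and 234 lower, and limma called 0 genes with the first (137 and 94 at an unadjusted p under 0.05) and 4 higher and 4 lower with the second. Both rescalings take it that rises and falls balance over the listed genes. The counts also rest on each library, since limma gave 0 higher and 17 lower without LPS library 1, 1 and 21 without LPS library 2, 14 and 125 without control library 1 and 14 and 123 without control library 2. Changes of a size up to about the shift between scalings therefore carry no firm direction, and the groups below are read against the median of all tested genes.

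**Figure D1:**
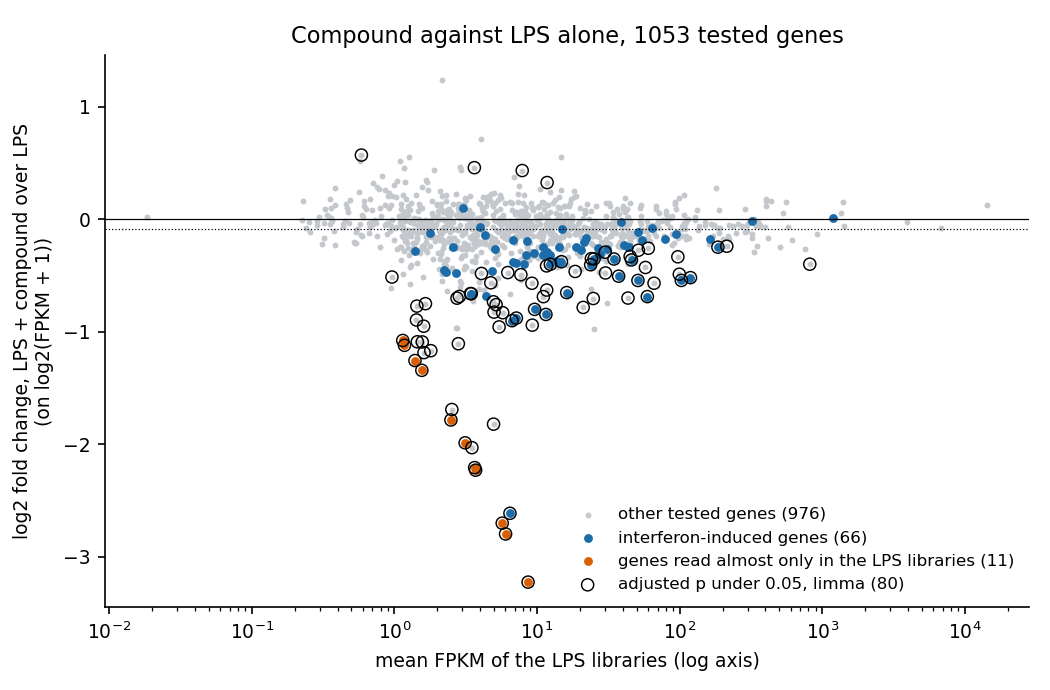
Log2 fold change of LPS with compound 13 over LPS alone, on log2(FPKM + 1), against the mean FPKM of the LPS libraries (log axis), for 1053 tested genes. Each point is a gene, ringed where limma gave an adjusted p under 0.05 (80 genes), and the dotted line is the median of −0.08. The 66 interferon-induced genes lie mostly under that line across the range of levels, and the 11 genes read almost only in the LPS libraries form the steep tail at the lower left.

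Many interferon-induced genes had lower levels in cells given the compound than in cells given LPS alone. Of 86 genes on an interferon-induced list, written with earlier results of these data known, 69 are in the table and 66 were tested. Of the 66, 20 fell and 0 rose, or 30.3% against 5.67% of the other tested genes. Without genes that reached the filter only because of the LPS or the compound libraries, 19 of 64 members fell, beside 53 of all 996 such genes. By the descriptive reading 56 of the 66 stood clear below the LPS libraries and 1 above, which is 84.85% below against 44.58% of the other genes. Their median log2 change was −0.30, beside −0.08 for all and −0.08 for the genes outside the list. After rescaling by the median of ratios the median was −0.15 beside 0.06 for the other genes, with 57 of 66 values negative and 45 genes clear below, and after quantile normalization it was −0.18 beside 0.05, with 55 negative and 48 clear below. No member of the list was called by limma after either rescaling, where 0 and 8 genes were called in all (25 and 24 members were lower at an unadjusted p under 0.05). Without LPS library 1 or LPS library 2 limma likewise called 0 members (33 and 31 lower at an unadjusted p under 0.05), with medians of −0.325 and −0.275, and without control library 1 or 2 it called 30 lower each. Among the 54 list members that LPS had at least doubled, the compound library retained a median of 68.2% of the rise over control, against 86.5% for all 635 such genes, a description in which the LPS libraries enter both terms.

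The interferon-induced genes with the strongest declines encode sensors and effectors of the antiviral response. Zbp1 (ENSMUSG00000027514, chromosome 2, 173206612 to 173218923, mm10), a sensor of Z-form nucleic acids that can start necroptosis, had 11.4 and 11.7 FPKM in the LPS libraries and 5.98 with the compound, against 0.975 and 0.795 in the control. The LPS values nearly coincide, and the compound value retains 47.8% of the LPS rise (log2 fold change −0.85, standard error 0.09, limma adjusted p = 0.0193). Ifi204 of the p200 family of DNA-binding proteins stood at 6.55 and 6.81 FPKM with LPS and 3.11 with the compound (log2 fold change −0.90, standard error 0.10, limma adjusted p = 0.0194). Oasl2, a member of the oligoadenylate synthetase family, stood at 9.44 and 9.80 and 5.10 FPKM (log2 fold change −0.80, standard error 0.10, limma adjusted p = 0.0228). Both stayed above the control, which was at 1.42 and 1.18 FPKM for Ifi204 and 1.01 and 1.26 for Oasl2. Isg15 (ENSMUSG00000035692, chromosome 4, 156199424 to 156200818), the ubiquitin-like modifier after which the class is often named, had 774 and 698 reads with LPS, 473 with the compound and 72 and 85 in the control. That is 61.7 and 57.1 against 36.5 FPKM, a ratio of reads of 0.614 (95% counting interval 0.552 to 0.682), where such intervals cover counting error only (log2 fold change −0.69, standard error 0.09, limma adjusted p = 0.0253).

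The promoters of 4 genes show how the letters of the response element sit in genes that fell and in a gene that did not. The windows run from 250 bases before to 50 bases after the start of the gene, are taken from RefSeq on GRCm38.p6, and read 5′ to 3′ on the strand of the gene. Capitals mark GAAANNGAAA on either strand, the core of the ISRE, with overlapping matches run together. Ifit3 (chromosome 19, 34583279 to 34583578, plus strand) and Ifit1 (chromosome 19, 34640639 to 34640938, plus strand) encode tetratricopeptide proteins that bind viral RNA, and each window holds 2 matches, the first starting 156 and 104 bases before the start. Isg15 (chromosome 4, 156200769 to 156201068, minus strand) holds 3 overlapping matches from 78 bases before the start. Bst2 (chromosome 8, 71537423 to 71537722, minus strand), which encodes tetherin, a protein that holds budding virions at the cell surface, holds 2 overlapping matches from 130 bases before it.
Ifit3: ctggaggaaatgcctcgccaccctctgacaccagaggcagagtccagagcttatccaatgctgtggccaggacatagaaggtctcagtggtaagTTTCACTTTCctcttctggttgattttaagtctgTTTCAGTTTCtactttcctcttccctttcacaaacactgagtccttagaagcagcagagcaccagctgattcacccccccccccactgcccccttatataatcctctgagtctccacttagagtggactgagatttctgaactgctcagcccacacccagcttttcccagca
Ifit1: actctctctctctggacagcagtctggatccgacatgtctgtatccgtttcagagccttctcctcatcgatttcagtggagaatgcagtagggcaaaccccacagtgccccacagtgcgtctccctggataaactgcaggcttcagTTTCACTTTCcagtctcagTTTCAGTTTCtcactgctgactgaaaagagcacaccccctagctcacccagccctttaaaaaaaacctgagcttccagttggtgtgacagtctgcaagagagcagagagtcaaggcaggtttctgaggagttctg
Isg15: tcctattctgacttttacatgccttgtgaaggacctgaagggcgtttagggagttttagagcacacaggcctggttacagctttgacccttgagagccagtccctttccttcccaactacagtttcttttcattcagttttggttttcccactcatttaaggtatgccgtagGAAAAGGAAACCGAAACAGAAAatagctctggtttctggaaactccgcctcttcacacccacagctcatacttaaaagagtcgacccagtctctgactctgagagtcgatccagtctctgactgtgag
Bst2: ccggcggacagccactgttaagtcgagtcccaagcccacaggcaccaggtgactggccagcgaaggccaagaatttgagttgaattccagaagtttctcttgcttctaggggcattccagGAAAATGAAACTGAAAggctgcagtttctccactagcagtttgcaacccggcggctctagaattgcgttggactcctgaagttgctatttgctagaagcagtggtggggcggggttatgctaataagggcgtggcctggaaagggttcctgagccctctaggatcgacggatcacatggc
Ifit3 fell from 7.46 and 6.87 FPKM to 3.44 (log2 fold change −0.88, standard error 0.09, limma adjusted p = 0.0193) and Ifit1 from 16.0 and 16.3 to 9.93 (log2 fold change −0.65, standard error 0.07, limma adjusted p = 0.0193). Bst2, with the same letters, had 333 and 313 FPKM with LPS and 319 with the compound, which lies between the LPS libraries (log2 fold change −0.02, standard error 0.08, limma adjusted p = 0.914). A promoter was matched for 53 of the 66 tested list members, and 25 of them (47.17%) hold the ISRE letters, beside 6.43% of 684 other tested genes and 3.49% of all 27018 RefSeq promoters of this length. The GAS letters TTCNNNGAA, searched on both strands, occur in 16.98%, 7.6% and 8.47% of these. Within the list the letters did not separate the genes by their change: the median was −0.32 for the 25 with the ISRE letters and −0.295 for the 28 without, and of the 16 matched members that fell, 6 hold them (37.5%), against 19 of the 37 others (51.35%).

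Lower values ran through most families of interferon-induced genes, with different depth. Among all tested genes 47.1% stood clear below and 7.22% were called lower, and no list member was called after either rescaling. All 4 Ifit genes stood clear below the LPS libraries, with a median log2 change of −0.67, and Ifit2, at 6.54 and 6.94 FPKM with LPS and 4.95 with the compound, did not pass the test (log2 fold change −0.38, standard error 0.08, limma adjusted p = 0.0566). All 5 tested genes of the p200 family stood clear below (median −0.48) and 2 of them fell, Ifi204 and Ifi211, the latter from 3.38 and 3.46 FPKM to 1.80. All 5 Slfn genes did so as well (median −0.37), although only Slfn4 fell, from 99.7 and 106 FPKM to 70.2 (log2 fold change −0.54, standard error 0.07, limma adjusted p = 0.0194). Slfn genes encode Schlafen proteins, several of which restrain proliferation of immune cells. Of 7 oligoadenylate synthetase genes, 5 stood clear below and 3 fell. Most of these enzymes make oligoadenylates that activate RNase L. Oasl1 had 50.9 and 51.2 FPKM with LPS and 34.7 with the compound (log2 fold change −0.54, standard error 0.05, limma adjusted p = 0.0193), Oas3 44.9 and 47.1 and 35.6 (log2 fold change −0.36, standard error 0.06, limma adjusted p = 0.037), and Oas2 38.5 and 38.7 and 38.0, a gap with a log2 change of −0.02 that did not pass the test.

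Of 4 listed STAT and IRF factors of the interferon loop 1 fell, and of 5 listed sensors 2 fell. Beside these, 7.22% of all tested genes were called lower and 47.1% stood clear below. Irf7 (ENSMUSG00000025498, chromosome 7, 141262706 to 141266481), the factor that amplifies interferon production, had 7247 and 7489 reads with LPS and 5364 with the compound, against 516 and 582 in the control. In FPKM that is 116 and 123 against 82.9, a ratio of reads of 0.696 (95% counting interval 0.674 to 0.718) (log2 fold change −0.52, standard error 0.07, limma adjusted p = 0.0267). Stat2, a subunit of the ISRE-binding complex, had 13.1 and 14.7 FPKM and 10.5 (log2 fold change −0.38, standard error 0.13, limma adjusted p = 0.161), and its partner Irf9 had a log2 change of −0.08. Thus Irf7 fell, whereas Stat2 and Irf9 did not pass. All 5 listed sensors of foreign RNA or DNA stood clear below the LPS libraries, with a median of −0.32, and besides Zbp1 Dhx58 fell, from 14.6 and 15.1 FPKM to 11.2 (log2 fold change −0.38, standard error 0.07, limma adjusted p = 0.0489). Ifih1, which encodes MDA5, and Ddx58, which encodes RIG-I, had log2 changes of −0.32 and −0.26 and did not pass. Other members that fell were Ifi44, Isg20, Samd9l, Trim30a, Parp14, Lgals3bp and Tap1, with log2 changes from −0.66 for Isg20 to −0.25 for Lgals3bp.

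**Figure D2:**
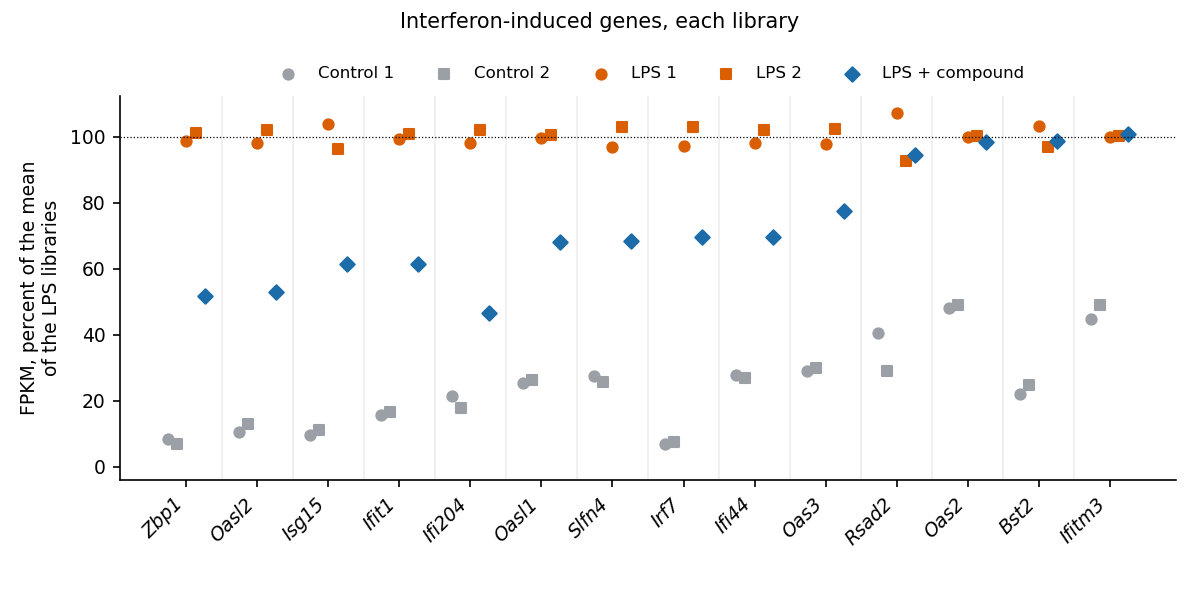
FPKM of 14 interferon-induced genes in each of the 5 libraries, as a percent of the mean of the LPS libraries (dotted line at 100). Grey symbols are the control libraries, orange the LPS libraries and blue diamonds the library with LPS and compound 13. The diamond lies under both orange symbols and above both grey ones from Zbp1 to Oas3, and beside or between the orange symbols from Rsad2 to Ifitm3.

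Some interferon-induced genes stayed near their LPS level. Ifitm3, an inhibitor of virus entry and the list member with the highest level, had 1187 and 1188 FPKM with LPS and 1196 with the compound, a ratio of reads of 1.01 (95% counting interval 0.987 to 1.03). Rsad2, the antiviral enzyme viperin, had 4.24 and 3.67 FPKM with LPS and 3.73 with the compound, between both LPS values, and Ifi47, an immunity-related GTPase, had 3.41 and 2.63 and 3.28. For these 3 genes and Bst2 the log2 changes ran from −0.06 to 0.10, and the counting intervals of Rsad2 and Ifi47, from few reads, reached from 0.813 to 1.09 and from 0.874 to 1.34. The GTPases of the Gbp and Irg families act against intracellular pathogens. Of 6 tested, 5 stood clear below, beside 47.1% of all tested genes. Their median was −0.215, and limma called 0 (2 at an unadjusted p under 0.05). Ifitm1 stands apart from the list: it had 132 and 100 reads with LPS, 4 with the compound and 0 and 5 in the control, the pattern of the keratin and matrix genes described below. Without it the list had 19 genes lower of 65 and a median of −0.30, and the medians after the rescalings were −0.14 and −0.18.

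Some genes outside the interferon-induced list that are known to respond to interferon were among those that fell, and they are given as single genes because no list was set for them. Apol9a and Apol9b, apolipoprotein L genes, went from 8.66 and 9.87 FPKM to 4.34 (log2 fold change −0.94, standard error 0.16, limma adjusted p = 0.04) and from 5.34 and 4.64 to 2.38 (log2 fold change −0.82, standard error 0.11, limma adjusted p = 0.0253), and these near-identical copies may share reads. Ifi44l went from 23.8 and 25.8 FPKM to 14.8 (log2 fold change −0.70, standard error 0.08, limma adjusted p = 0.0193). Rnf213, Mov10, Helz2 and Siglec1 were chosen after their values were seen. Rnf213, a giant ubiquitin ligase with antimicrobial action, had 18000 and 18587 reads with LPS and 12823 with the compound, a ratio of 0.670 (0.656 to 0.683). Siglec1, the sialic acid receptor CD169, had 55.9 and 59.3 FPKM with LPS, 42.5 with the compound and 2.45 and 2.80 in the control. Its log2 change was −0.43 (limma adjusted p = 0.0489), and those of Mov10 and Helz2 were −0.46 and −0.35.

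Antigen presentation through MHC class I is a pathway that interferons raise. Of 10 tested genes of peptide presentation, 3 fell, 0 rose and 7 stood clear below, beside 7.22% called lower and 47.1% clear below among all tested genes, with a median log2 change of −0.20 that was −0.03 and −0.11 after the rescalings. Tap1, a subunit of the peptide transporter of the endoplasmic reticulum and a member of the interferon list as well, had 12.2 and 12.6 FPKM with LPS and 9.16 with the compound (log2 fold change −0.40, standard error 0.07, limma adjusted p = 0.0466). The nonclassical class I genes H2-T22 and H2-T24 had 11.4 and 11.9 against 8.51 FPKM and 94.8 and 99.6 against 76.9, with log2 changes of −0.41 and −0.33, and class I genes are close enough in sequence to share reads. B2m, the invariant light chain and among the 6 genes with the highest LPS level, had 1433 and 1431 FPKM against 1373 (log2 fold change −0.06, standard error 0.04, limma adjusted p = 0.447). Of the costimulatory and inhibitory surface molecules 0 of 5 were called (2 lower at an unadjusted p under 0.05), and the ligands Cd274 (PD-L1) and Cd276 each had a log2 change of −0.21. Pdcd1, which encodes the receptor PD-1, fell from 3.03 and 2.47 FPKM to 1.30 (log2 fold change −0.70, standard error 0.14, limma adjusted p = 0.0489), further from the control at 6.35 and 5.48.

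The study measured nitric oxide in culture, not Nos2, and both release and mRNA of TNF-α, MCP-1 and IL-6. It reported that the compound lowered all of these after LPS. Of the genes behind these mediators, Nos2, Tnf and Ccl2 did not pass the test here and Il6 had too few reads for it. The nitric oxide synthase that LPS induces, Nos2, had 24.5 and 22.7 FPKM with LPS and 21.4 with the compound, below both but by less than they differed from each other (log2 fold change −0.13, standard error 0.08, limma adjusted p = 0.392). Tnf (ENSMUSG00000024401, chromosome 17, 35199381 to 35202007) had 11837 and 11515 reads with LPS, 13667 with the compound and 1170 and 1193 in the control. It stood clear above the LPS libraries, at 486 against 435 and 435 FPKM, and did not pass the test (log2 fold change 0.16, standard error 0.04, limma adjusted p = 0.0738). The ratio of Tnf reads was 1.12 (1.09 to 1.14). Ccl2, which encodes MCP-1, lay between the LPS libraries, with 364 and 347 FPKM against 349 (log2 fold change −0.03, standard error 0.19, limma adjusted p = 0.937). In the lone compound library Tnf lay opposite to the reported direction, and Ccl2 showed no fall beyond the spread of the LPS libraries. Il6 was near the detection limit, with 10 and 10 reads in the LPS libraries, 11 with the compound and 0 and 0 in the control. At this depth its ratio of 1.05 (0.455 to 2.30) leaves both a fall and a rise possible, and the gene was below the filter of the test.

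Among the other secreted signals limma called 1 of 10 chemokine ligands and 1 of 13 cytokines and growth factors lower. These counts are near the 7.22% called lower among all tested genes. Of 10 tested chemokine ligands 1 fell, 0 rose and 7 stood clear below, beside 7.22% called lower and 47.1% clear below among all tested genes. The median of the ligands was −0.09, and 0.08 and 0.00 after the rescalings. The 1 that fell was Ccl6, a monocyte attractant of the mouse, from 2.92 and 2.79 FPKM to 1.397 (log2 fold change −0.69, standard error 0.10, limma adjusted p = 0.0267). Ccl3, the most abundant chemokine transcript here, had 3966 and 3941 FPKM against 3885, a log2 change of −0.03. Of 13 cytokines and growth factors, Il18 alone fell, from 8.88 and 9.54 FPKM to 5.88, which is below the control at 7.90 and 7.32 (log2 fold change −0.57, standard error 0.08, limma adjusted p = 0.0308). Interleukin 18 is made as a precursor that inflammasomes activate, as is interleukin 1 beta. Il1b and Il1a, named after their values were seen, stood clear below the LPS libraries and did not pass, with 14.6 and 14.7 against 11.4 FPKM for Il1b (limma adjusted p = 0.0724) and 11.8 and 12.2 against 8.83 for Il1a (limma adjusted p = 0.0567). Of 7 chemoattractant receptors 0 passed and 5 stood clear below, again beside 47.1% of all tested genes (2 were lower at an unadjusted p under 0.05). Among the 5 were Ccr1 at 16.7 and 15.9 against 12.1 FPKM, Fpr1, the formyl peptide receptor, at 2.503 and 1.82 against 1.15, and Cxcr3 at 9.33 and 8.25 against 6.60.

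**Figure D3:**
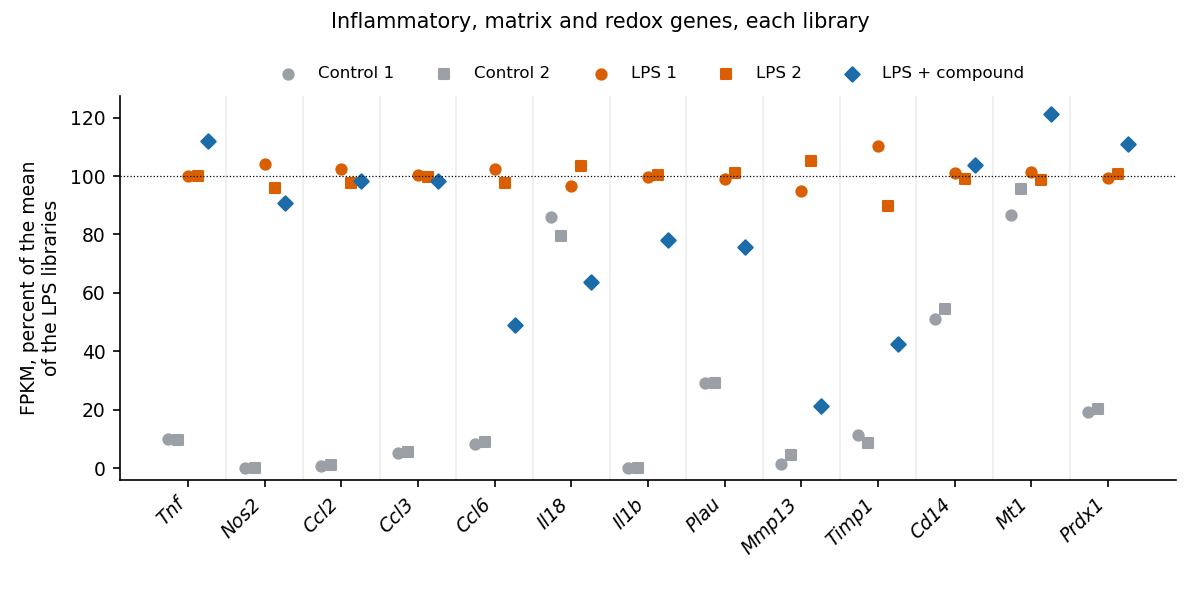
FPKM of 13 inflammatory, matrix and redox genes in each of the 5 libraries, as a percent of the mean of the LPS libraries (dotted line at 100), with control libraries in grey, LPS libraries in orange and LPS with compound 13 in blue. Tnf, Mt1 and Prdx1 with the compound lie above the orange symbols, Ccl2 between them, and Ccl6, Il18, Plau, Mmp13 and Timp1 under them.

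Among genes of matrix turnover and of plasminogen activation, Plau, Serpinb2 and Timp1 fell. Of 13 tested, 5 were called lower, 0 higher and 11 stood clear below, beside 7.22% called lower and 47.1% clear below among all tested genes, and 2 of the 5, Mmp13 and Sparc, reached the filter only because of the LPS libraries. Without these the list had 3 of 11 called lower, beside 53 of 996. The median of the 13 was −0.27, and the rescaled medians were −0.11 and −0.14. Plau (ENSMUSG00000021822, chromosome 14, 20836662 to 20843388), the urokinase plasminogen activator and 1 of the 5 genes over 100 FPKM with LPS that fell, had 31822 and 31579 reads with LPS, 25161 with the compound and 9406 and 9613 in the control. In FPKM it stood at 810.5 and 825 against 620.1, which retains 65.9% of the LPS rise (log2 fold change −0.40, standard error 0.04, limma adjusted p = 0.0193). Serpinb2, the inhibitor of urokinase PAI-2, had 7.67 and 7.74 FPKM against 5.19 (log2 fold change −0.49, standard error 0.09, limma adjusted p = 0.0431), so the protease and this inhibitor moved in the same direction. The collagenase Mmp13 had 60 and 65 reads with LPS, 14 with the compound and 1 and 3 in the control. Timp1, an inhibitor of such metalloproteases, had 88 and 70, 35 and 9 and 7 reads (log2 fold change −0.96, standard error 0.14, limma adjusted p = 0.0308). Sparc belongs to the genes read almost only in the LPS libraries, and 10 of the 29 listed matrix genes are of that kind, 1 of them tested. Mmp9, a gelatinase, stood at 20.2 and 19.7 FPKM against 15.7 and did not pass (limma adjusted p = 0.0735).

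Of the genes of lipid mediators and nitric oxide, those called lower reached the filter only because of the LPS libraries. Pla2g7, which degrades platelet-activating factor, had 90 and 63 reads with LPS, 17 with the compound and 0 and 1 in the control, the 1 called of 6 tested prostanoid and leukotriene genes. Ptgs2, the inducible cyclooxygenase, named after its values were seen, was at 158 and 161 FPKM against 137 and missed the threshold (limma adjusted p = 0.0559). In the nitric oxide list 1 of 5 was called, Cav1, again a gene read almost only in the LPS libraries. Scavenger receptor Cd36, a transporter of fatty acids and oxidized lipoproteins counted among both the lysosome and the alternative macrophage genes, went from 209.9 and 219 FPKM to 181 (log2 fold change −0.24, standard error 0.04, limma adjusted p = 0.0466). It was the 1 called of 12 tested lysosome and phagocytosis genes and of 8 tested markers of alternatively activated macrophages. Those 8 had a median of −0.24, with 0 higher, 5 clear below and rescaled medians of −0.07 and −0.14. Among all tested genes 7.22% were called lower and 47.1% stood clear below.

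The PI3K and AKT pathway, to which the study assigns a role in this model, is thinly covered by the table. The study reports a KEGG enrichment of the pathway from its sequencing. By qPCR and by immunoblot it also found PI3K and AKT raised by LPS and lowered by the compound. It names PI3K and AKT without naming single genes, and the values here do not test its protein results. None of the genes of catalytic or regulatory PI3K subunits and of AKT that were looked for is among the 1489 genes, nor are Tlr4, Il4, Il10 and Arg1. Of 8 tested intracellular members of the pathway 0 were called, also at an unadjusted p under 0.05. Among all tested genes 7.22% were called lower. Clear below stood 5 and clear above 1, beside 47.1% and 11.7% of all tested genes. The median of the 8 was −0.07, and 0.08 and 0.01 after the rescalings. Myc, a transcription factor downstream of many growth signals, had 36.4 and 37.8 FPKM with LPS and 31.4 with the compound (log2 fold change −0.23, standard error 0.10, limma adjusted p = 0.221). The mitochondrial enzyme Pck2 and the death-inducing Bcl2l11 (BIM) had log2 changes of −0.11 and −0.10. Of 20 tested ligands, receptors and integrins of the pathway 1 fell, Itgb7, the integrin beta 7 chain, from 60.9 and 59.7 FPKM to 50.3 (log2 fold change −0.26, standard error 0.05, limma adjusted p = 0.0466), with 9 clear below and 5 above. Itgb7 was also the 1 called among 9 integrin subunits. Such small counts do not set the pathway or the integrins apart from all tested genes.

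Signalling feedback genes of the inflammatory response gave 1 call. Zfp36, which encodes tristetraprolin, a protein that speeds decay of cytokine mRNAs, fell from 29.9 and 30.3 FPKM to 24.4 (log2 fold change −0.29, standard error 0.05, limma adjusted p = 0.0466). It was the 1 of 12 tested NF-kB and feedback genes called, beside 7.22% called lower among all tested genes, and the median of the 12 was −0.09. Of 18 MAP kinase feedback and immediate-early genes 0 were called, with 2 low and 1 high at an unadjusted p under 0.05. Clear below stood 12 and clear above 3, beside 47.1% and 11.7% of all tested genes. Dusp6, a phosphatase of ERK, had 87.3 and 90.5 FPKM against 75.7 (limma adjusted p = 0.0735), Egr2 2.94 and 3.35 against 2.32, and the stress factor Atf3 went the other way with 17.9 and 18.6 against 21.9 (limma adjusted p = 0.129). Their directions split, and neither side passed. Socs3, a feedback inhibitor of cytokine receptors, had 131 and 136 against 125 FPKM. Cd14, the co-receptor that hands LPS to TLR4, had 1360.1 and 1331 FPKM against 1396, clear above by a log2 change of 0.05, and Irak2, a kinase downstream of the receptor, had 11.4 and 11.03 against 10.3.

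Redox and metal genes stood on both sides of their LPS level. Of 18 antioxidant genes 1 was called lower and 0 higher, with 7 clear below and 7 above and a median of −0.02. Of 8 metal and iron genes 0 were called (2 higher at an unadjusted p under 0.05), 5 stood clear above and 1 below, with a median of 0.06. Among all tested genes 7.22% were called lower and 0.38% higher, and 47.1% stood clear below and 11.7% clear above. Prdx1, a peroxiredoxin, had 1388 and 1407 FPKM with LPS and 1551 with the compound (log2 fold change 0.15, standard error 0.05, limma adjusted p = 0.128). Mt1, a metallothionein, had 183 and 179 against 219.6 (log2 fold change 0.28, standard error 0.07, limma adjusted p = 0.079), and Fth1, the ferritin heavy chain and the most abundant listed transcript, 14230.0 and 14375 against 15657 (log2 fold change 0.13, standard error 0.05, limma adjusted p = 0.197). These 3 stood clear above both LPS libraries and none passed. The gene called lower was Gstm2, a glutathione transferase, which reached the filter only because of the LPS libraries, with 55 and 34 reads with LPS, 4 with the compound and 1 and 1 in the control. Nqo1, a quinone reductase and a common readout of NRF2, stood at 4.23 and 3.66 FPKM against 2.22 and did not pass (limma adjusted p = 0.0828), and Ephx1 of the xenobiotic list, a microsomal epoxide hydrolase, at 1.02 and 1.21 against 0.778.

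Metabolic, stress and differentiation lists held no further calls by limma. Of all 1053 tested genes, limma called 7.22% lower, 47.1% stood clear below, 11.7% clear above, and 228 were lower at an unadjusted p under 0.05. Of 19 genes of cholesterol synthesis, uptake and efflux 13 stood clear below and 0 above with a median of −0.11, but rescaling turned the median to 0.05 and 0.01. Of these genes 5 were lower at an unadjusted p under 0.05. Scd1, the stearoyl-CoA desaturase, had 7.35 and 8.09 FPKM against 5.84 (limma adjusted p = 0.0798), while Fdft1 and Hsd17b7 of the sterol pathway had log2 changes of −0.20 and −0.22 and Cyp51 one of −0.13. Of 8 glycolysis and hypoxia-linked genes 3 were lower at an unadjusted p under 0.05, with Acod1, which makes itaconate, at 415 and 418 FPKM against 372, Vegfa at 11.1 and 10.97 against 8.66 and Hk3, a hexokinase, at 116 and 118 against 104. Among 10 genes of endoplasmic reticulum stress, Chac1 had 3.57 and 3.44 FPKM against 2.28 and Trib3 6.18 and 5.53 against 4.78, with 2 genes each way at an unadjusted p under 0.05. Of 8 osteoclast genes 7 stood clear below, beside 47.1% of all tested genes, and 1 above (3 lower at an unadjusted p under 0.05), but their median of −0.16 was −0.01 after either rescaling, with 2 clear below in each. Among the 7 were the master regulator Nfatc1 at 30.7 and 32.1 FPKM against 26.9 and Ocstamp, a factor of cell fusion, at 3.59 and 3.80 against 2.98. Of 15 cell death and survival genes, 1 was lower at an unadjusted p under 0.05, with log2 changes of −0.28 for the kinase gene Pim2, −0.16 for Pim1 and −0.12 for Mlkl, the effector of necroptosis. The stefin genes Stfa2 and Stfa3, cysteine protease inhibitors, had 28.8 and 32.7 against 17.9 FPKM and 345 and 352 against 296, and S100a8, a calcium-binding alarmin, 333 and 333 against 272. All 3 stood clear below and none passed. The macrophage markers Fcgr1, Fcgr3 and Cd52 had log2 changes of −0.42, −0.07 and −0.17. None of 55 genes of the cell cycle and replication list is in the table.

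**Figure D4:**
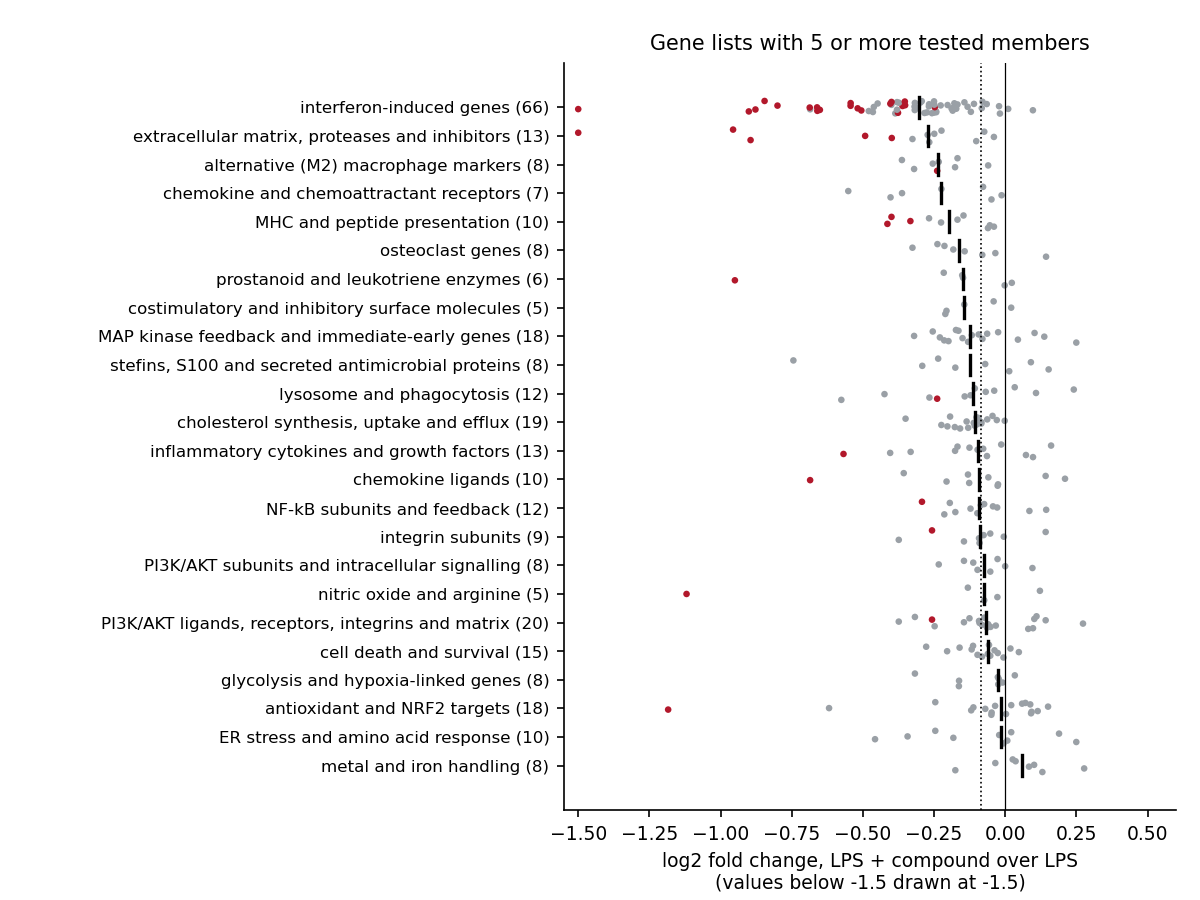
Log2 fold changes of compound 13 with LPS over LPS alone for gene lists with 5 or more tested members (number in brackets), on log2(FPKM + 1). Each point is a gene, red where limma gave an adjusted p under 0.05, black bars are list medians, the dotted line is the median of all tested genes (−0.08), and values below −1.5 are drawn at −1.5. The interferon-induced list lies farthest to the left with a median of −0.30 and holds 20 of the red points, and the metal and iron list alone has a median above 0.

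The largest differences of the comparison came from genes that have reads almost only in the LPS libraries. Each LPS library holds at least 10 reads, and no other library more than 3, for 77 of the listed genes. Together they had 3529 and 2424 reads with LPS, 40 with the compound and 23 and 32 in the control, where the low sums outside the LPS libraries follow from the choice of the genes. Of these 77, 11 passed the filter and all 11 were called lower, which their choice by reads makes likely and which is therefore given with no weight. Krt8 (ENSMUSG00000049382, chromosome 15, 101996711 to 102004342), a keratin of simple epithelia, had 361 and 196 reads with LPS and 0 in the other 3 libraries. Against a floor of 3 reads in the compound library it was at least 97.2-fold lower with the compound. Its partners Krt18 and Krt19 had 102 and 71 and 129 and 97 reads with LPS and 0 elsewhere, at least 30.2-fold and 39.4-fold lower. Serpinh1, a collagen chaperone, had 286 and 197 reads with LPS and 0 with the compound, Sparc, a collagen-binding matrix protein, 193 and 117 and 0, and Cav1, the caveolar coat protein, 75 and 58 and 0. Nedd4, a ubiquitin ligase, had 225 and 187 reads with LPS and 3 with the compound, and Ptrf, which encodes cavin 1 of the caveolar coat, 182 and 116 and 5. In each of these genes LPS library 1 had more reads than LPS library 2, and the compound library was far under both.

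**Figure D5:**
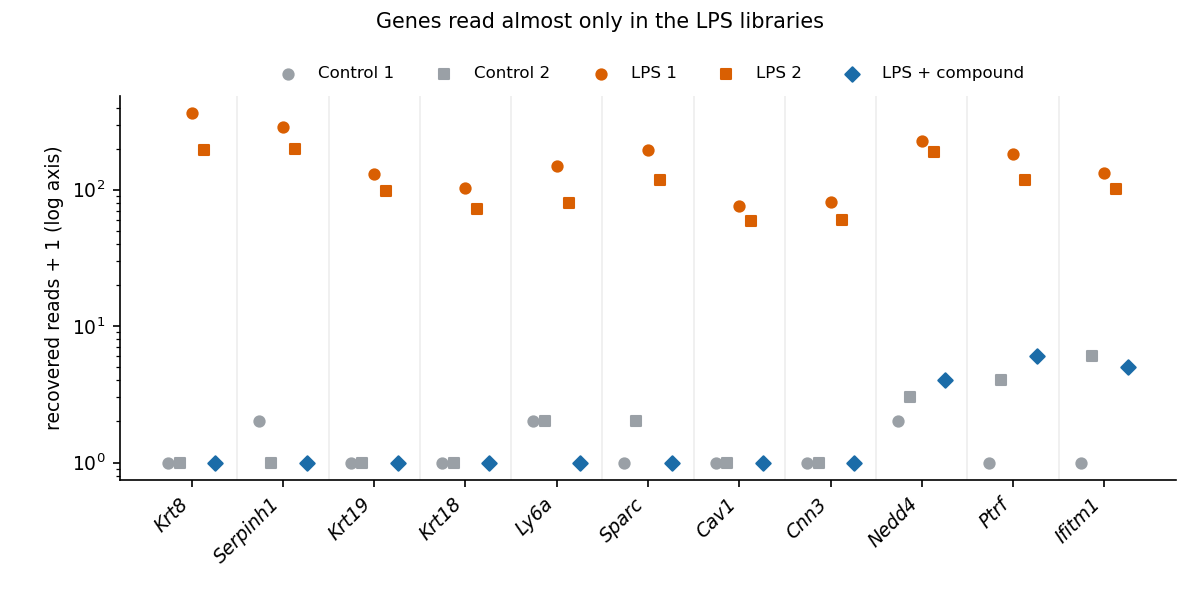
Recovered reads plus 1 (log axis) of 11 genes in each of the 5 libraries, with control libraries in grey, LPS libraries in orange and LPS with compound 13 in blue. The LPS libraries hold 58 to 361 reads per gene, and the compound and control libraries 0 to 5, with Ptrf and Ifitm1 just over the limit of 3 reads in another library.

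Markers of other cell types overlap with this group: 3 epithelial, 3 fibroblast and mesenchymal and 1 endothelial marker are among the 77 genes. Lower sums outside the LPS libraries follow in part from that choice. Of 42 epithelial markers 7 are listed, with 730 and 484 summed reads in the LPS libraries, 130 with the compound and 219 and 242 in the control. Krt8, Krt18, Krt19 and Elf3 have 0 reads with the compound, and Elf3 is not among the 77. The highest log2 change of the 4 tested epithelial markers was −0.03. Of 28 fibroblast and mesenchymal markers 8 are listed, with 496 and 394 reads in the LPS libraries, 169 with the compound and 24 and 21 in the control. Col3a1, Col6a1, Sparc, Tpm2 and Twist1 are at 0 with the compound, and Tpm2 and Twist1 are not among the 77. Of the 2 tested fibroblast and mesenchymal markers, 1 had a log2 change of −0.03. Of 17 endothelial markers 3 are listed, with 115 and 91 reads with LPS, 23 with the compound and 6 and 2 in the control. None of 16 lymphocyte markers is listed, and of 14 neutrophil markers 2 are, at 3848 and 3755 reads with LPS and 3249 with the compound. The part of other cells in the LPS libraries in these calls was not tested. Leaving out the genes whose reads outside the LPS group never exceed 3 left 1042 genes, of which limma called 0 higher and 41 lower. Of these 41, 14 were interferon-induced, and none of the 69 listed interferon-induced genes is among the 77.

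The 4 genes called higher did not form a known group. Tmem141 (ENSMUSG00000026939, chromosome 2, 25620067 to 25622005), a small membrane protein gene, had 222 and 211 reads with LPS, 289 with the compound and 506 and 505 in the control, where its level was highest (log2 fold change 0.33, standard error 0.06, limma adjusted p = 0.0466). Treml4, a myeloid receptor known to amplify TLR7 signalling in the mouse, went from 3.65 and 3.62 FPKM to 5.37, with 2.09 and 1.96 in the control (log2 fold change 0.46, standard error 0.08, limma adjusted p = 0.0466). Gstt4, a glutathione transferase, had 9 and 10 reads with LPS and 23 with the compound, and 0 in both control libraries, and it reached the filter only because of the compound library. The long noncoding RNA Gm14275 had 57 and 54 and 81 reads and 0 in the control (log2 fold change 0.43, standard error 0.08, limma adjusted p = 0.0489). Treml4, Gstt4 and Gm14275 thus went beyond the LPS level, away from the control, and Tmem141 went toward it.

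The remaining genes named by rule were lower. Sdc3, the proteoglycan syndecan 3, fell from 10.9 and 11.2 FPKM to 6.51 (log2 fold change −0.69, standard error 0.08, limma adjusted p = 0.0194). The ribosomal protein gene Rpl29 fell from 23.5 and 18.7 to 11.8 FPKM (limma adjusted p = 0.0471), and Gm7592, Gm11216 and Hist1h2al, pseudogene or noncoding entries, had 30, 16 and 15 reads with the compound and log2 changes of −0.83, −0.76 and −0.73. The microRNA gene Mir133a-2, with 73 and 75 reads with LPS and 47 with the compound, was counted in a library of long RNA and its value does not measure the mature microRNA. Members of multicopy families such as Rpl29 and the histone entry may share reads with their copies, so these values are uncertain. Spp1, which encodes osteopontin and ranked next to Fth1 in level, had 6877 and 6808 FPKM with LPS and 6502 with the compound (log2 fold change −0.07, standard error 0.03, limma adjusted p = 0.265).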

How the data were processed

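RNA of RAW264.7 cells was sequenced in 5 libraries with a strand-specific kit on an Illumina HiSeq, and libraries were grouped by their sample labels. The authors deposited log2 FPKM values of 1489 genes, with build mm10 and with HISAT2 2.1.0, SAMtools 1.4, Trimmomatic 0.32 and DESeq2 named, without settings, in the submitters' processing notes. Not given in the sources used here are the counter, the annotation release, the use of strand in counting and the rule of gene selection. Exact zeros (562 values) were read as 0 reads.

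Depths were recovered by trying 5000000 to 25000000 reads in steps of 2000. At the depths used, 97.0% to 99.5% of low values came within 0.1 of a whole read with exon lengths of GENCODE mouse release 21, against at most 51.0% elsewhere, and 1487 of 1489 identifiers matched. Limma-voom on these recovered reads called 14 genes higher and 288 lower. It covered 1487 genes, without the FPKM filter that left 1053 in the main test, so the counts are not of the same set.

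The main test was limma 3.58.1 in R 4.3.3 on log2(FPKM + 1), with a trend, 2 residual and 2.97 prior degrees of freedom, and Benjamini-Hochberg adjustment over 1053 genes. It was tested on simulated data, as were the intervals, which are exact 95% Clopper-Pearson intervals. Other steps used Python 3.11.15 with scipy 1.17.1 and pandas 2.3.3. A fold against 0 reads takes 3 reads over the group as its floor and leaves out counting error of the other group. The members, the 34 gene lists and the tests were chosen with earlier results of these data known. Genes named are those limma called higher and the 15 largest declines with at least 1 FPKM with the compound. To these were added the 5 with most LPS reads among declines below 1 FPKM, and up to 3 called or clear members per direction and list. Genes of the mediators and pathway the study measured, and the 6 with the highest LPS level, were named too. Alternatives were pseudocount, filter, scaling, replicate block, sample set, moderation, effect size, recovered reads and left-out libraries.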

Additional observations from a re-analysis of the deposited data

How the results depend on the processing

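The counts of limma calls changed most with the scale, the filter and the libraries in the fit. They are partly over unlike sets: 1489 genes without a filter, 494 at 10 FPKM, 1487 with limma-voom and 1053 in the main fit. Against 4 higher and 76 lower genes, a pseudocount of 0.1 gave 0 and 35, no filter 2 and 83, a filter at 10 FPKM 0 and 15, the median of ratios 0 and 0 (137 and 94 at an unadjusted p under 0.05), quantile normalization 4 and 4, the fit of LPS and compound libraries only 13 and 128, limma-voom on recovered reads 14 and 288, the fit without genes read only in the LPS libraries 0 and 41, and an added limit of 1 on the absolute log2 change 0 and 20. Leaving out 1 library gave 0 to 14 higher and 17 to 125 lower.

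The differences between libraries 1 and 2 of control and LPS were uncorrelated over 1053 genes (r = −0.022, across genes). This cannot settle whether replicate numbers pair the samples, because a shared batch need not act alike in both groups and the compound library is not in it. With the replicate number as a block, 0 genes were higher and 52 lower, of which 50 were among the 80 calls, and 12 were interferon-induced.

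For the interferon-induced list, the 20 lower calls became 8 with a pseudocount of 0.1, 7 with the 10 FPKM filter, 0 with either rescaling, 12 without the trend, 36 with limma-voom, 1 with the added limit on size, and 0 to 30 with 1 library left out. Its median of −0.30 became −0.151 and −0.18 with the median of ratios and quantile normalization, ran from −0.325 to −0.275 with 1 library left out, and was negative in every setting run. The 56 members clear below the LPS libraries became 36 of 41 with the 10 FPKM filter, 45 and 48 with the rescalings.

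Over all genes, 123 clear above and 496 clear below became 65 and 258 with the 10 FPKM filter, 366 and 225 with the median of ratios, 319 and 234 with quantile normalization, and 71 and 366 when the counting interval also had to leave out 1. Of 87 named genes under all alternatives (1261 values), 0 called values turned direction, 226 calls were lost, 59 were gained, and 21 values uncalled in both settings changed sign. The cause of these changes was not tested. With 1 library of the compound, its own spread is unknown, and at about 10 reads, as for Il6, the counting interval of the ratio spans 0.455 to 2.3.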

Other observations

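A few genes with large changes did not pass limma and fall outside the rule for named genes, so they were chosen after their values were seen. Cdk2ap2, an inhibitor of the kinase CDK2, had 64 and 51 reads in the LPS libraries and 179 with the compound, the largest positive log2 change of the tested genes at 1.24, with a limma adjusted p of 0.199. Neat1, the noncoding RNA that builds paraspeckles, had 2288 and 2403 reads with LPS and 3287 with the compound (log2 fold change 0.37, limma adjusted p = 0.0713). Il7r, the interleukin 7 receptor chain, had 796 and 795 reads with LPS and 1023 with the compound (log2 fold change 0.27, limma adjusted p = 0.0827). All 3 stood clear above both LPS libraries.

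Tlr8, an endosomal receptor for RNA, fell from 60 and 53 reads with LPS to 23 with the compound, where the control had 118 and 116 (log2 fold change −0.51, limma adjusted p = 0.0489). Like Pdcd1, Tlr8 was lower with LPS than in the control and lower again with the compound. It reached the filter only because of the control libraries, so its fall from control to LPS follows in part from that entry. Axl, a receptor for the ligand Gas6 in the clearance of dead cells, stood clear below the LPS libraries and Gas6 clear above them, with log2 changes of −0.58 and 0.24, and neither passed.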
